A study of Mus musculus with 6 samples.

Results

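Mouse mesenchymal stem cells given Sox9 were compared directly with the same cells given Tead4, without the vector control entering any gene's ratio. Both groups came from an immortalized line that was grown from a single cell and carries intact floxed Dicer alleles (Dicer WT, Dicer f/f). Sox9 cells were transfected with a vector for Sox9 and Tead4 cells with a vector for Tead4. The labels list 1 sample for each, of 6 samples in the series, and the deposited group means resolved into 2 libraries per group. Cells were grown subconfluent in Alpha-MEM with 10% fetal bovine serum, and ribosome-depleted total RNA was sequenced strand-specifically from a single end. In the labels the cell type is given once as mesenchymal stem cell and once as fibroblast. All groups share 1 clonal line, so nothing here speaks to other clones. Vector cells, the same line with an empty vector, are given below only as context, last and untested.

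SOX9 is the transcription factor that sets up the cartilage lineage. Together with SOX5 and SOX6 it binds enhancers of the cartilage matrix genes, among them those for type II collagen and aggrecan. TEAD4 is one of a family of DNA-binding proteins with little activity of their own. They turn genes on when the Hippo pathway lets the coactivators YAP and TAZ into the nucleus, and Ctgf, Cyr61 and Ankrd1 are the usual readouts. In mesenchymal cells SOX9 is known for chondrogenesis, while YAP and TEAD factors are known for growth and for the response to stiff surfaces.

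Cartilage genes were among the genes furthest above their Tead4 level in Sox9 cells. Of 15 measured members of the cartilage list, 14 were higher in Sox9 cells and passed limma. However, 11 of the 15 had a mean under 50 normalised reads in Tead4 cells and were compared only because they were high in Sox9 cells. That count therefore cannot rank the cartilage list above other lists. Sequencing gave 7767701 and 6130267 exonic reads in the Sox9 libraries and 10877587 and 8669890 in the Tead4 libraries. Reads in introns, mostly a measure of unspliced transcripts, numbered 3720908 and 3156973 in Sox9 cells and 4710539 and 3494141 in Tead4 cells. Levels below are normalised reads on the scale of the Sox9 table, and differences are log2 values of Sox9 minus Tead4 cells with their standard error, from limma on log2 of the normalised reads plus 1. A gene passed where its Benjamini-Hochberg adjusted p was under 0.05, and since nothing says that the libraries came from separate cultures, such a p speaks only of the spread among these 4 libraries, part or all of which may be technical. Of 23227 genes, 9687 had a mean of at least 50 over both groups and were compared. A gene with a mean under 50 in 1 group was thus compared only where it was high in the other. This bears on every count of list members below. Of these, 719 passed limma (7.42%), 399 higher in Sox9 cells (4.12%) and 320 lower (3.30%). The count hung on single libraries: it was 1621 without Sox9 library 1, 1930 without Sox9 library 2, 555 without Tead4 library 1 and 1187 without Tead4 library 2.

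Large differences lay mostly on the Sox9 side. By size alone, 461 genes (4.76%) were at least 2-fold apart, 321 higher in Sox9 cells and 140 lower, and 349 of them passed limma. At least 4-fold apart were 97 higher and 19 lower genes, and at least 16-fold apart 26 higher and 3 lower. The median log2 ratio of all compared genes was −0.02. Just inside and outside the 2-fold limit, taken on the log2 ratio of group means plus 1, stood Leprel2 at 1.004 and 2410066E13Rik at 0.998 on the higher side, and Unc5b at −1.001 and Tesk2 at −0.999 on the lower side. Sox9 and Tead4 libraries were fully apart for 5739 genes (59.2%), so lack of overlap by itself is common here. In these bulk samples, fewer cells of a kind and less RNA per cell cannot be told apart.

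**Figure D1:**
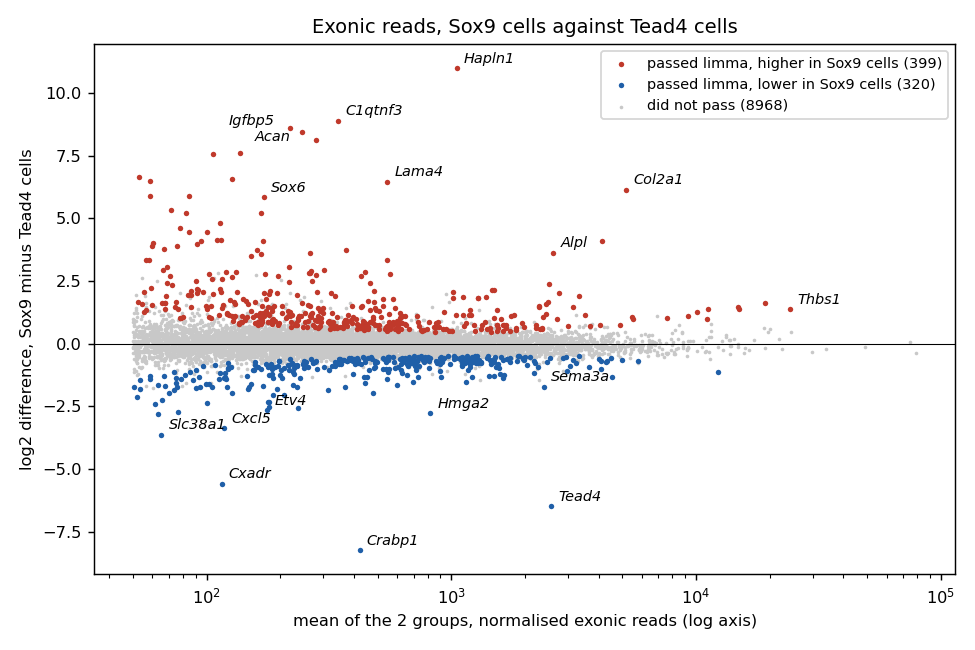
Each point is 1 of 9687 genes, with the mean normalised exonic reads of the 2 groups on a log axis and the limma log2 difference of Sox9 minus Tead4 cells. Genes that passed limma are coloured by direction, 399 higher and 320 lower in Sox9 cells; values of genes with no or almost no reads in 1 group depend on the 1 added to each value.

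The factor genes were read first. Tead4 had 54.5 and 54.7 normalised exonic reads in the Sox9 libraries, against 5811 and 4275 in the Tead4 libraries. The groups were far apart, at −6.49 ± 0.17 (limma adjusted p = 2.8e-05), and vector libraries had 32.7 and 34.6. Intronic reads of Tead4 were also lower in Sox9 cells, with 55.7 and 58.9 in the Sox9 libraries against 692 and 679 in the Tead4 libraries, a smaller difference of −3.56 ± 0.14 (limma adjusted p = 1.4e-06). Sox9 had 179 and 186 normalised exonic reads in Sox9 cells and 81.3 and 160 in Tead4 cells. The libraries did not overlap, but the difference of 0.67 ± 0.31 did not pass (limma adjusted p = 0.21), and it passed only when Tead4 library 2 was left out (limma adjusted p = 0.0026). In introns Sox9 had 25.3 and 20 normalised reads in Sox9 cells and 9.27 and 14.3 in Tead4 cells, under the minimum for a test. Reads of the Sox9 gene itself thus give only a weak check of the label of the Sox9 cells. Pbx3, the factor given to another group of the series, did not differ beyond the spread (−0.15 ± 0.18), nor did Dicer1 in exonic reads (0.41 ± 0.15, limma adjusted p = 0.14), which passed without Sox9 library 1 (limma adjusted p = 0.014). Dicer1 passed in intronic reads, at 0.45 ± 0.12 (limma adjusted p = 0.041), but not when any 1 of the 4 libraries was left out (limma adjusted p = 0.057 to 0.17).

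Proteins of the cartilage matrix stood at the top of the list. Hapln1, the link protein that ties aggrecan to hyaluronan, had 2611 and 1599 normalised exonic reads in Sox9 libraries, against 0 and 0 in Tead4 libraries. Counted as 3 reads for the Tead4 group, the floor used throughout, this made it at least 1717-fold higher (limma adjusted p = 5.2e-05), and vector libraries had 1.45 and 1.98. Acan, the aggrecan core protein, had 632 and 346 in Sox9 libraries, against 0.76 and 0 in Tead4 libraries, where 1 read was found in all. The ratio was 1203, with a 95% counting interval of 215 to 47584.5 (limma adjusted p = 0.001). Lect1, which codes for the vessel-inhibiting protein chondromodulin, had 308 and 117 in Sox9 libraries, against 0 and 0 in Tead4 libraries, or at least 177-fold higher by the same floor (limma adjusted p = 0.0045). These genes were nearly absent from every Tead4 library and present in every Sox9 library.

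The cartilage collagens moved together with them. Col2a1, the main fibrillar collagen of cartilage, had 11604 and 8752 normalised exonic reads in Sox9 libraries, against 180 and 111 in Tead4 libraries, and was 6.15 ± 0.24 higher (limma adjusted p = 0.00018). Vector libraries had 423 and 326, between the groups. Col11a1, its partner in the same fibrils, had 9727 and 5886 in Sox9 libraries, against 367 and 523 in Tead4 libraries (4.11 ± 0.26). Col27a1, a fibrillar collagen of growing cartilage, had 528 and 450 in Sox9 libraries, against 28.9 and 52.1 in Tead4 libraries (3.62 ± 0.28). Both passed limma (adjusted p = 0.0013 and 0.0025). Col9a1, which coats the type II fibrils, lay under the minimum mean with 108 and 58.6 in Sox9 libraries, against 0 and 0 in Tead4 libraries, or at least 68.3-fold higher by that floor. Col11a2, also under the minimum, had 99.3 and 53.4 in Sox9 libraries, against 9.12 and 3.72 in Tead4 libraries.

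Transcription factors that work with SOX9 were higher as well. Sox6 had 370 and 303 normalised exonic reads in Sox9 libraries, against 3.04 and 7.45 in Tead4 libraries, a difference of 5.85 ± 0.41 (limma adjusted p = 0.0018). Its long introns carried 1942 and 2140 normalised reads in Sox9 cells, against 30.9 and 66.6 in Tead4 cells (5.46 ± 0.28, limma adjusted p = 4.5e-06). Sox5 reached the minimum only in introns, with 395 and 340 in Sox9 libraries, against 93.5 and 112 in Tead4 libraries (1.83 ± 0.16, limma adjusted p = 0.00017). Sox8, a close relative of Sox9, had 126 and 88.5 exonic in Sox9 libraries, against 18.2 and 41.0 in Tead4 libraries (1.91 ± 0.42, limma adjusted p = 0.045). All these libraries were apart between the groups. Of 18 Sox genes in the table, Sox6, Sox8 and Sox9 were the 3 measured in exonic reads, and 11 of the other members had no read in either group.

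Receptors, enzymes and other proteins of cartilage cells were also higher in Sox9 cells. Fgfr3, the FGF receptor that restrains growth plate cartilage, had 976 and 411 normalised exonic reads in Sox9 libraries, against 40.3 and 53 in Tead4 libraries (3.75 ± 0.38, limma adjusted p = 0.0064). The cation channel Trpv4 had 188 and 98.9 in Sox9 libraries, against 9.12 and 7.45 in Tead4 libraries (3.89 ± 0.41). Papss2, which makes the sulfate donor for proteoglycans, had 893 and 665 in Sox9 libraries, against 89.7 and 126 in Tead4 libraries (2.85 ± 0.22). Xylt1, which starts the glycosaminoglycan chains, was 3.32 ± 0.35 higher, and the sulfate transporter Slc26a2 was 1.44 ± 0.24 higher. Slc26a2 belongs to the solute carrier list and not to the cartilage list. Of 21 measured solute carriers, 3 were higher, 2 lower and 16 did not pass, beside 4.12% of all compared genes higher and 3.30% lower. The proteoglycan Fmod, with 190 and 160 in Sox9 libraries against 13.7 and 43.7 in Tead4 libraries, was 2.78 ± 0.50 higher. All 6 of these genes passed limma, with adjusted p between 0.0022 and 0.026.

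Of 35 SOX9 and cartilage genes in the table, 15 reached the minimum mean, and 14 of these were higher in Sox9 cells and passed limma, against 4.12% of all compared genes. The other was Sox9 itself. The mean of 11 of the 15 lay under 50 in Tead4 cells, so these were measured only because they were high in Sox9 cells. Of the 20 members under the minimum, 15 were higher in Sox9 cells by value, 3 lower, and 2 had no read in either group. The measured members had a median log2 ratio of 3.87, beside −0.02 over all compared genes. In introns 12 members were measured and 12 were higher in Sox9 cells (7.52% of all genes compared in introns), with a median of 3.71. The difference was seen in both of these pairs of single libraries, with medians of 4.18 between Sox9 library 1 and Tead4 library 2 and 3.92 between Sox9 library 2 and Tead4 library 1.

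**Figure D2:**
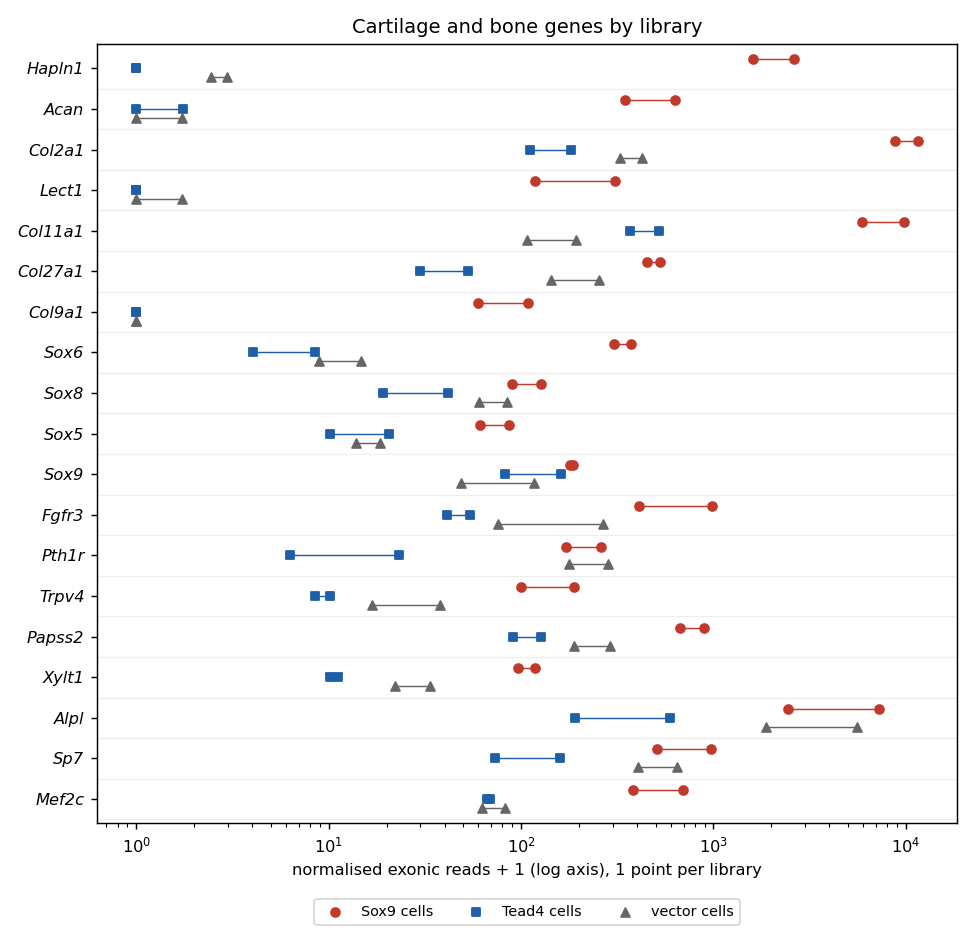
Normalised exonic reads plus 1 on a log axis, 1 point per library, for cartilage and bone genes in Sox9, Tead4 and vector cells. For Hapln1, Acan, Lect1 and Col9a1 the Tead4 libraries sit at or near 0 reads, while Alpl, Pth1r and Sp7 are as high in vector cells as in Sox9 cells or nearly so.

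Several genes outside the cartilage list reached the same range. C1qtnf3, a secreted protein also called cartducin, had 946 and 424 normalised exonic reads in Sox9 libraries, against 0.76 and 0 in Tead4 libraries, a ratio of 1700 (95% counting interval 305 to 67194.8). Itm2a, a membrane protein of early cartilage, had 781 and 337 in Sox9 libraries, against 0.76 and 0.931 in Tead4 libraries, a ratio of 694 (192 to 5741). Panx3, a channel protein of cartilage and bone cells, had 386 and 120 in Sox9 libraries, against 0.76 and 1.86 in Tead4 libraries, a ratio of 212 (72.0 to 1031). Each passed limma, with adjusted p of 0.001 for the first pair and 0.0064 for Panx3. In vector libraries C1qtnf3 was near 0, at 1.45 and 0, whereas Itm2a had 66.9 and 63.3 and Panx3 89.4 and 41.5.

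The basement membrane chain Lama4, a laminin subunit, had 1365 and 798 normalised exonic reads in Sox9 libraries, against 6.84 and 16.8 in Tead4 libraries (6.47 ± 0.42, limma adjusted p = 0.0013). The cell adhesion molecule Chl1 had 323 and 221 in Sox9 libraries, against 0 and 0.931 in Tead4 libraries, a ratio of 662 (118 to 26201.7). Faah, which breaks down endocannabinoids, had 116 and 117 in Sox9 libraries, against 0.76 and 0 in Tead4 libraries, a ratio of 279 (49.5 to 11078.5). Gas7, a regulator of the cytoskeleton, had 144 and 67.7 in Sox9 libraries, against 0 and 0 in Tead4 libraries, or at least 87.4-fold higher by that floor. The glial cadherin Cdh19 (167 and 113 in Sox9 libraries, against 0.76 and 5.58 in Tead4 libraries) and S100b, a calcium-binding protein of glia and chondrocytes (252 and 107 against 4.56 and 15.8), were also higher, at 5.35 ± 0.69 and 4.09 ± 0.62 (limma adjusted p = 0.012 and 0.018). The neuronal stathmin Stmn2 had 190 and 146 in Sox9 libraries, against 3.04 and 0.931 in Tead4 libraries (5.91 ± 0.53, limma adjusted p = 0.0044). It was the only one of 5 neuron markers in the table that reached the minimum. Of the other 4, Snap25 and Rbfox3 had no read in either group, and 2 were lower in Sox9 cells by value.

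Of 13 measured osteoblast genes, 6 were higher in Sox9 cells and passed limma, beside 4.12% of all compared genes, and 7 did not pass. The mean of 2 of the 13 lay under 50 in Tead4 cells, so these were compared only because they were high in Sox9 cells. Alpl, the alkaline phosphatase of mineralizing cells, had 7225 and 2425 normalised exonic reads in Sox9 libraries, against 190 and 596 in Tead4 libraries (3.63 ± 0.63, limma adjusted p = 0.024). Vector libraries had 5561 and 1884, so the Tead4 libraries were the ones that stood low. Sp7, the osteoblast transcription factor osterix, had 971 and 510 in Sox9 libraries, against 72.2 and 159 in Tead4 libraries (2.70 ± 0.42), with 646 and 403 in vector libraries. Pth1r, the receptor of parathyroid hormone, was likewise low in Tead4 libraries, with 261 and 171 in Sox9 libraries against 5.32 and 22.3 in Tead4 libraries (4.12 ± 0.60), and 281 and 177 in vector libraries. Mef2c, a factor of cartilage and bone maturation, behaved otherwise: it had 691 and 379 in Sox9 libraries, against 67.6 and 65.1 in Tead4 libraries (2.93 ± 0.28), and 81.4 and 61.3 in vector libraries. Smpd3 and Col1a1, a sphingomyelinase of bone and the main bone collagen, were 1.98 ± 0.39 and 1.66 ± 0.16 higher. The adjusted p of these 5 lay between 0.0056 and 0.034. Runx2, which starts the bone lineage, had 1135 and 1181 in Sox9 libraries and 958 and 847 in Tead4 libraries and did not pass (0.36 ± 0.12, limma adjusted p = 0.11).

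Osteoblast genes also differed between libraries of 1 group, by a median of 0.61 between Sox9 libraries 1 and 2 and 0.64 between Tead4 libraries 2 and 1. The group difference was present in both cross pairs, at 1.14 between Sox9 library 1 and Tead4 library 2 and 1.47 between Sox9 library 2 and Tead4 library 1. The whole list had a median log2 ratio of 1.28 over its measured members.

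Of 37 measured matrix and remodelling genes, 16 were higher in Sox9 cells, 4 lower and 17 did not pass, beside 4.12% of all compared genes higher and 3.30% lower. Their median log2 ratio was 0.73. Tnn, tenascin-W, had 113 and 115 normalised exonic reads in Sox9 libraries, against 3.04 and 11.2 in Tead4 libraries (4.03 ± 0.57, limma adjusted p = 0.015). Aspn (2.88 ± 0.62), Postn (2.13 ± 0.41) and Col3a1 (1.88 ± 0.40), an asporin, a periostin and the type III collagen of loose tissue, were higher as well. Col1a2 had 25884 and 17660 in Sox9 libraries, against 6545 and 9218 in Tead4 libraries (1.46 ± 0.24), and fibronectin, Fn1, had 14640 and 10616 against 5762 and 5951 (1.09 ± 0.18). The members that were lower in Sox9 cells were Col4a1, a basement membrane collagen (921 and 771 in Sox9 libraries, against 1388 and 1469 in Tead4 libraries, −0.76 ± 0.13), the crosslinking enzyme Loxl3 (−0.88 ± 0.13), and the fibulins Fbln1 (−0.82 ± 0.17) and Fbln2 (−0.73 ± 0.16). Their adjusted p from limma lay between 0.016 and 0.045, and Fbln1 did not pass without Tead4 library 1 (limma adjusted p = 0.12). Postn had 1917 and 2857 in Sox9 libraries, against 337 and 850 in Tead4 libraries, and 2528 and 3269 in vector libraries, while Tnn had 223 and 224 in vector libraries.

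Proteins that hold cells to matrix or cut it also included genes higher in Sox9 cells. Of 10 measured integrins, 3 were higher, beside 4.12% of all compared genes, and 7 did not pass. The higher ones were Itga9, a tenascin receptor, at 3.35 ± 0.73, and the collagen receptors Itga11 and Itga1 at 2.50 ± 0.40 and 1.89 ± 0.43. The list median was −0.05. The gelatinase Mmp2 had 554 and 417 normalised exonic reads in Sox9 libraries, against 49.4 and 101 in Tead4 libraries (2.74 ± 0.33, limma adjusted p = 0.0099). With Adamts12 (1.1 ± 0.23) it made 2 higher of 18 measured metalloproteinases and inhibitors, beside the same 4.12%, and 16 did not pass.

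Secreted growth factors and their binding proteins differed by family. Igfbp5, which binds insulin-like growth factors, had 644 and 230 normalised exonic reads in Sox9 libraries, against 0 and 0 in Tead4 libraries, or at least 365-fold higher by the floor of 3 reads (limma adjusted p = 0.0018). Vector libraries had 7.27 and 0. The mean of 3 of the 9 measured IGF family genes lay under 50 in Tead4 cells, so these were compared only because they were high in Sox9 cells. Of all 9, 4 did not pass and 5 were higher, beside 4.12% of all compared genes. The others were Igfbp4 (2.50 ± 0.53), the ligand Igf1 (226 and 143 in Sox9 libraries, against 25.1 and 59.6 in Tead4 libraries, 2.19 ± 0.43), the protease Pappa (1.52 ± 0.23) and Igfbp7 (1.12 ± 0.20). Igfbp4 had 221 and 89.8 in Sox9 libraries, against 16 and 36.3 in Tead4 libraries, and stood highest in vector libraries at 1644 and 514.

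In the TGF-beta and BMP list, 7 of 28 measured genes were higher, 1 lower and 20 did not pass. Over all compared genes 4.12% were higher and 3.30% lower. The BMP antagonist Chrdl1 had 433 and 510 normalised exonic reads in Sox9 libraries, against 61.5 and 63.3 in Tead4 libraries (2.89 ± 0.16, limma adjusted p = 0.001), and the activin-binding follistatin, Fst, had 1261 and 702 against 104 and 178 (2.78 ± 0.33). The ligand Bmp4 (1.20 ± 0.24), the inhibitory Smad6 (1.42 ± 0.30) and Smad7 (0.80 ± 0.13), the latent binding protein Ltbp2 (1.12 ± 0.12) and the ligand Tgfb1 (1.05 ± 0.24) made up the rest. Tgfb1 did not pass without Sox9 library 2 or without Tead4 library 1 (limma adjusted p = 0.064 and 0.067). Bmper, a BMP-binding protein, was lower in Sox9 cells, with 29.9 and 15.6 in Sox9 libraries against 121 and 95.9 in Tead4 libraries (−2.26 ± 0.37). Of 15 measured Wnt pathway genes, 3 were higher, 1 lower and 11 did not pass, beside the same shares. The higher ones were the intracellular Wnt inhibitor Nkd2 (2.02 ± 0.22), the secreted Sfrp2 (1.4 ± 0.31) and the R-spondin receptor Lgr4 (0.84 ± 0.14). Sfrp4, a secreted Wnt inhibitor, was lower in Sox9 cells, with 29.9 and 11.7 in Sox9 libraries against 160 and 104 in Tead4 libraries (−2.71 ± 0.47, limma adjusted p = 0.024). Of 9 measured Notch and Hedgehog genes, 7 did not pass. The ligand Jag1 (1.46 ± 0.24) and the receptor Notch2 (0.54 ± 0.11) were higher, beside the same 4.12%. Notch2 was no longer called without Tead4 library 1 or 2 (limma adjusted p = 0.085 and 0.11).

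The usual targets of TEAD and YAP had no common direction as a list, with 17 higher and 18 lower in Sox9 cells by value in exonic reads. Of 35 measured targets, 4 were higher in Sox9 cells, 1 lower and 30 did not pass in exonic reads, with a median log2 ratio of −0.11. Of all compared genes, 4.12% were higher and 3.30% lower. Thbs1, a matrix glycoprotein, had 38299 and 31795 normalised exonic reads in Sox9 libraries, against 13182 and 13592 in Tead4 libraries (1.38 ± 0.16, limma adjusted p = 0.0086). Ccdc80 (1.84 ± 0.32), Dlc1 (0.75 ± 0.13) and Amotl2, an angiomotin that holds YAP in the cytoplasm (7902 and 6691 in Sox9 libraries, against 3735 and 3686 in Tead4 libraries, 0.97 ± 0.13), were higher, and Dock5 was lower (−0.79 ± 0.16), though not past the threshold without Tead4 library 1 (limma adjusted p = 0.053).

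The 3 usual readouts passed limma in introns and not in exons. In exonic reads Ctgf had 956 and 1694 in Sox9 libraries and 2332 and 1506 in Tead4 libraries, overlapping and not passing (−0.56 ± 0.30). Cyr61 had 3784 and 4878 against 5282 and 4428 (−0.17 ± 0.16), and Ankrd1 1822 and 2206 against 4120 and 2839 (−0.77 ± 0.20, limma adjusted p = 0.061). In introns they were lower and passed limma. Ctgf had 56.7 and 127 in Sox9 libraries, against 206 and 170 in Tead4 libraries (−1.13 ± 0.31, limma adjusted p = 0.043). Cyr61 had 258 and 625 in Sox9 libraries, against 824 and 1127 in Tead4 libraries (−1.26 ± 0.33, limma adjusted p = 0.035). Ankrd1 had 327 and 561 in Sox9 libraries, against 1007 and 945 in Tead4 libraries (−1.19 ± 0.21, limma adjusted p = 0.0069). These calls rest on few libraries. In exons Ankrd1 passed when Sox9 library 1, Sox9 library 2 or Tead4 library 2 was left out (limma adjusted p = 0.0026, 0.0019 and 4.9e-05), and Ctgf when Sox9 library 2 or Tead4 library 2 was (limma adjusted p = 0.0021 and 0.00059). Ctgf did not pass in introns without Sox9 library 1 (−0.56, limma adjusted p = 0.096), without Tead4 library 1 (limma adjusted p = 0.28) or without Tead4 library 2 (limma adjusted p = 0.13). Cyr61 lost its call without Tead4 library 1 or 2 (limma adjusted p = 0.13 and 0.21), and so did Ankrd1 (limma adjusted p = 0.095 and 0.053). The exonic and intronic differences were not shown to differ, at 1.09 ± 0.32 for Cyr61 (limma adjusted p = 0.23). In vector libraries the intronic values were 344 and 520 for Ctgf, 1203 and 1022 for Cyr61 and 1548 and 1236 for Ankrd1, so no Tead4 library was above the highest vector library. In all, 7 of 30 targets measured in introns were higher and 6 lower, beside 7.52% and 5.96% of all genes compared in introns.

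Within the Hippo pathway, 26 of 29 genes were measured, and over all compared genes 4.12% were higher and 3.30% lower. Amotl2 and Vgll4, a TEAD-binding repressor (0.73 ± 0.17), were higher in Sox9 cells, and Tead4 was lower. The remaining 23 did not pass, among them Yap1, with 1152 and 1044 in Sox9 libraries and 1349 and 1192 in Tead4 libraries (−0.21 ± 0.12), and Tead1, with 806 and 794 against 1075 and 790 (−0.20 ± 0.16). Vgll4 did not pass without Tead4 library 1 (limma adjusted p = 0.24).

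Genes lower in Sox9 than in Tead4 cells began with a retinoid carrier and an adhesion protein. Crabp1, a carrier of retinoic acid, had 1.07 and 2.60 normalised exonic reads in Sox9 libraries, against 1020 and 661 in Tead4 libraries. With 3 reads in all Sox9 cells, it was 488-fold higher in Tead4 cells, with a 95% counting interval of 167 to 2367 (limma adjusted p = 0.00044), and vector libraries had 32.0 and 15.8. Cxadr, an adhesion protein that also serves viruses as a receptor, had 1.07 and 9.11 in Sox9 libraries, against 271 and 179 in Tead4 libraries (−5.60 ± 0.73, limma adjusted p = 0.012). The glutamine transporter Slc38a1 had 6.41 and 11.7 in Sox9 libraries, against 141 and 101 in Tead4 libraries (−3.64 ± 0.41, limma adjusted p = 0.0085). Both stood between the groups in vector libraries, with 135 and 79.1 for Cxadr and 53.1 and 47.5 for Slc38a1.

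Hmga2, Mecom, Rap1gap2 and Mark1 were also among the genes furthest below their Tead4 level in Sox9 cells. Hmga2, a chromatin protein of embryonic and dividing cells, had 239 and 165 normalised exonic reads in Sox9 libraries, against 1833 and 1030 in Tead4 libraries (−2.78 ± 0.29, limma adjusted p = 0.0066). Vector libraries had 309 and 344, nearer to the Sox9 libraries. Mecom, a zinc finger transcription factor, had 49.1 and 87.2 in Sox9 libraries, against 465 and 342 in Tead4 libraries (−2.59 ± 0.29, limma adjusted p = 0.0085), and here vector libraries, with 278 and 260, lay nearer to the Tead4 libraries. Of 14 measured D cyclins and cell cycle inhibitors, 2 were higher, 1 lower and 11 did not pass, with a median log2 ratio of −0.03. Over all compared genes 4.12% were higher and 3.30% lower. Ccnd2, a D cyclin that drives entry into the cell cycle, had 959 and 690 in Sox9 libraries, against 2362 and 1710 in Tead4 libraries (−1.30 ± 0.21, limma adjusted p = 0.021). The cell cycle inhibitor Cdkn1a had 199 and 182 against 94.2 and 101 and was higher (0.96 ± 0.17), and so was Rb1 (0.62 ± 0.13), which did not pass without Tead4 library 1 (limma adjusted p = 0.18). Rap1gap2, which switches off the small GTPase RAP1, was lower at −2.52 ± 0.25, and the polarity kinase Mark1 at −2.42 ± 0.35 (limma adjusted p = 0.0064 and 0.016).

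Of 22 measured genes of FGF and EGF signalling and its feedback, 7 were lower in Sox9 cells, 2 higher and 13 did not pass, with a median log2 ratio of −0.42. Of all compared genes, 3.30% were lower and 4.12% higher. By group mean, 3 of the 22 lay under 50 in Sox9 cells and 1 in Tead4 cells. These were compared only because they were high in the other group. Etv4, a transcription factor that FGF signalling turns on, had 49.1 and 43.0 normalised exonic reads in Sox9 libraries, against 383 and 230 in Tead4 libraries (−2.67 ± 0.27, limma adjusted p = 0.0064). Its relative Etv5 had 48.1 and 36.4 in Sox9 libraries, against 176 and 115 in Tead4 libraries (−1.74 ± 0.29). Dusp6, the phosphatase that turns ERK off, had 117 and 102 in Sox9 libraries, against 390 and 202 in Tead4 libraries (−1.35 ± 0.30), and the EGF family ligand Hbegf had 97.2 and 117 against 403 and 315 (−1.73 ± 0.19). Phlda1 (−1.79 ± 0.27) and Il1rl1 (−1.81 ± 0.28), both induced by ERK signalling, were lower as well, with adjusted p from limma of 0.017 and 0.018. Without Tead4 library 1 Dusp6 stood at −0.88 and did not pass (limma adjusted p = 0.08). The members that were higher were both FGF receptors, Fgfr3 and Fgfr2 (928 and 519 in Sox9 libraries, against 269 and 299 in Tead4 libraries, 1.29 ± 0.26). Vector libraries had Etv4 at 85.1 and 84.1 and Hbegf at 352 and 396, so Hbegf was low in Sox9 cells and Etv4 high in Tead4 cells relative to them.

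Of 15 measured genes of the chemokine and cytokine list, 4 were lower in Sox9 cells, beside 3.30% of all compared genes, and 11 did not pass. The mean of 2 of the 15 lay under 50 in Sox9 cells, so these were compared only because they were high in Tead4 cells. By value 5 of the 15 were higher, and the list median was 0.02 between Sox9 library 1 and Tead4 library 2 and −0.41 between Sox9 library 2 and Tead4 library 1. Cxcl5, which attracts neutrophils, had 32.0 and 11.7 normalised exonic reads in Sox9 libraries, against 245 and 181 in Tead4 libraries (−3.37 ± 0.45, limma adjusted p = 0.014). Cxcl10, an interferon-induced chemokine, had 23.5 and 9.11 in Sox9 libraries, against 91.2 and 128 in Tead4 libraries (−2.79 ± 0.47, limma adjusted p = 0.023). Cxcl1 (−1.34 ± 0.22) and Ptgs2, the inducible cyclooxygenase (401 and 655 in Sox9 libraries, against 1464 and 1107 in Tead4 libraries, −1.31 ± 0.25), were the others. None of the 20 measured interferon response genes passed limma, and 6 had an unadjusted p under 0.05.

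**Figure D3:**
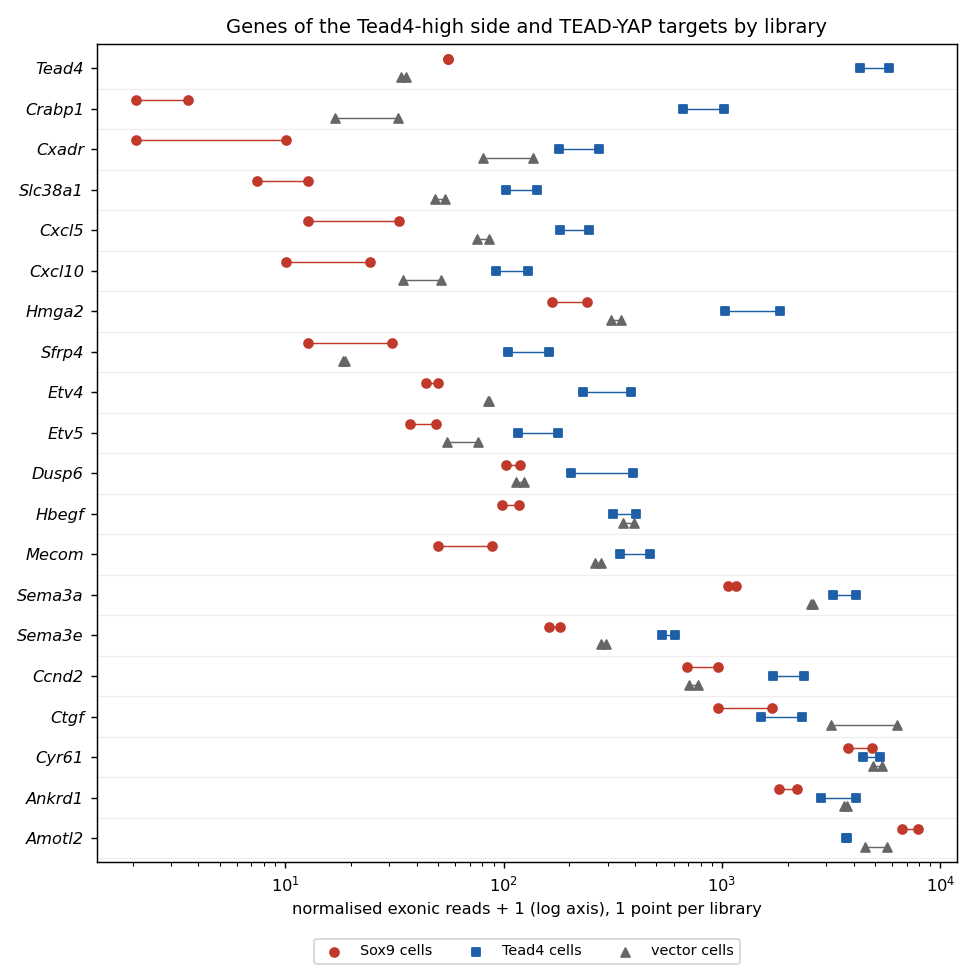
Normalised exonic reads plus 1 on a log axis, 1 point per library, for genes lower in Sox9 than in Tead4 cells and for TEAD-YAP targets. Tead4, Crabp1, Hmga2 and Etv4 are high in Tead4 libraries alone, Mecom and Hbegf are low in Sox9 libraries alone, and the libraries of Ctgf and Cyr61 overlap between the groups.

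Guidance cues went both ways. Sema3a and Sema3e, secreted semaphorins that repel axons and vessels, were lower in Sox9 cells. Sema3a had 1068 and 1153 normalised exonic reads in Sox9 libraries, against 4121 and 3203 in Tead4 libraries (−1.71 ± 0.15, limma adjusted p = 0.0039), and Sema3e had 160 and 180 against 605 and 531 (−1.73 ± 0.14, limma adjusted p = 0.0031). The netrin receptor Unc5b was lower too (−1.01 ± 0.18). Sema3d (1.65 ± 0.31) and the receptor Epha3 (1.21 ± 0.16) were higher, and the other 19 of 24 measured members did not pass. Over all compared genes 4.12% were higher and 3.30% lower. In the retinoid list, Crabp1 was lower while 2 of 9 measured genes were higher, beside the same shares. Cyp26b1, which breaks down retinoic acid, had 140 and 92.4 in Sox9 libraries, against 0 and 2.79 in Tead4 libraries, a ratio of 94.4 (95% counting interval 31.9 to 462, limma adjusted p = 0.013). Dhrs3, which turns retinal back to retinol, had 674 and 709 against 146 and 300 (1.72 ± 0.31).

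Of 8 measured adipocyte genes 2 were higher and 1 lower, and of 19 measured contractile genes 2 were higher. Over all compared genes 4.12% were higher and 3.30% lower. Fabp4, a fatty acid carrier, had 1641 and 1654 normalised exonic reads in Sox9 libraries, against 374 and 407 in Tead4 libraries (2.08 ± 0.11, limma adjusted p = 0.00096). Pparg, the adipocyte transcription factor, was 0.78 ± 0.12 higher and the lipid droplet protein Plin2 lower, at −0.56 ± 0.11 but not called without Tead4 library 1 or 2 (limma adjusted p = 0.056 and 0.11), and the other 5 measured adipocyte genes did not pass. Acta2, smooth muscle actin, had 35435 and 22594 in Sox9 libraries, against 8868 and 9292 in Tead4 libraries (1.64 ± 0.22, limma adjusted p = 0.014), and Acta1 was 1.28 ± 0.13 higher. The other 17 of 19 measured contractile genes did not pass.

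**Figure D4:**
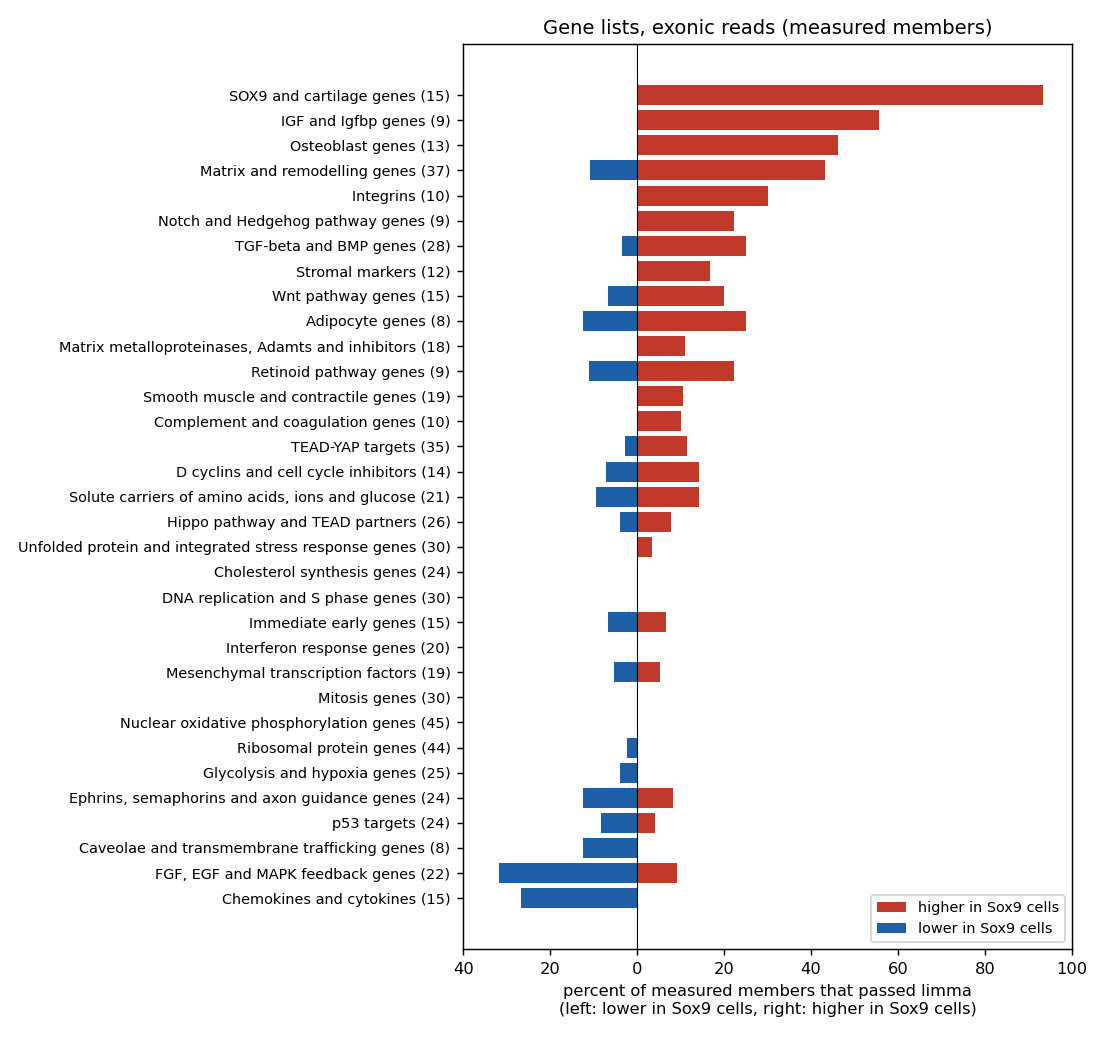
Percent of the measured members of each gene list that passed limma in exonic reads, to the right higher and to the left lower in Sox9 than in Tead4 cells, with the number measured in brackets. Lists with fewer than 8 measured members are left out. Over all compared genes, the shares were 4.12% higher and 3.30% lower. A member with a mean under 50 in 1 group was compared only because it was high in the other. The SOX9 and cartilage list stands at the top with 14 of 15 higher. Of these 15, 11 had a mean under 50 in Tead4 cells, so this place is partly set by the minimum mean. The FGF feedback and chemokine lists stand at the bottom with 7 of 22 and 4 of 15 lower.

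Housekeeping lists held few or no called genes in exonic reads, beside 4.12% of all compared genes higher and 3.30% lower. None of 30 DNA replication, 30 mitosis, 24 cholesterol synthesis or 45 nuclear oxidative phosphorylation genes passed limma in exonic reads, and 7, 4, 10 and 8 of them had an unadjusted p under 0.05. Of 44 ribosomal protein genes 1 passed, Rpl13 at −0.54 ± 0.12, of 30 stress response genes 1, Atf5 at 1.36 ± 0.17, and of 25 glycolysis and hypoxia genes 1, Car12 at −1.74 ± 0.31. Rpl13 did not pass without Tead4 library 1 (limma adjusted p = 0.34). The cholesterol genes had a median log2 ratio of −0.50, with 23 of 24 lower in Sox9 cells by value. In introns, beside 5.96% of all compared genes, 7 of 23 cholesterol genes were lower and passed. These genes also differed between the libraries of a group, by a median of 0.94 between Sox9 libraries 1 and 2 and 0.39 between Tead4 libraries 2 and 1. The cross pairs gave −0.32 between Sox9 library 1 and Tead4 library 2 and −0.79 between Sox9 library 2 and Tead4 library 1. With the library order read from the data as a term in limma, 13 of the 24 cholesterol genes were lower and 1 higher in exons, and 19 of 23 were lower in introns. The same term called 12 of 44 ribosomal protein genes lower and 1 higher in exons. Over all compared genes it called 1159 of 9687 lower and 1103 higher in exons, and 1117 of 8375 lower and 1150 higher in introns. Without that term, ribosomal protein genes had a median exonic log2 ratio of −0.22, with 34 of 44 lower by value. In introns 7 of 42 ribosomal protein genes were lower and passed, beside the 5.96%.

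Markers of other cell types were mostly low, and of them only Stmn2 and Cd14 reached the minimum mean in exonic reads. Vim, a marker of mesenchymal cells, had 34186 and 28945 normalised exonic reads in Sox9 libraries and 38445 and 33773 in Tead4 libraries, and Pdgfrb had 2463 and 1636 against 1130 and 1366, and neither passed, although Pdgfrb was higher and passed without Sox9 library 2 or Tead4 library 2 (limma adjusted p = 0.00022 and 0.0014). In exonic reads Col1a1 and Ly6a of 12 measured stromal markers were higher and passed, beside 4.12% of all compared genes. The other 10 did not pass. In introns, beside 7.52% higher and 5.96% lower of all compared genes, Col1a1 of 10 measured stromal markers was higher and Cd44 and Vcam1 were lower. The stromal surface marker Thy1 had no read in either group, although mesenchymal stem cells are usually defined by it. Ptprc, Cdh5, Krt18, Myog and Epcam had at most 1 exonic read over the libraries of either group. In introns Krt18, Myog and Epcam had none, Ptprc had 3 in Sox9 and 1 in Tead4 cells, and Cdh5 had 35.4 and 48.3 normalised reads in Sox9 libraries and 74.2 and 64.6 in Tead4 libraries (−0.73 ± 0.26, limma adjusted p = 0.093, or 0.029 with library order as a term). Summed over the whole list in exonic reads, epithelial markers had 1.07 and 0 in Sox9 libraries and 45.6 and 37.2 in Tead4 libraries, endothelial markers 21.4 and 23.4 against 10.6 and 14.0, and skeletal muscle markers, nearly all from Des, 67.3 and 49.5 against 12.9 and 13.0. Neuron markers summed to 217 and 176 in Sox9 libraries against 57.0 and 50.3 in Tead4 libraries, and little of the Tead4 sums came from Stmn2. Of the macrophage list 1 of 9 members was measured, Cd14, with 39.5 and 36.4 in Sox9 libraries against 92.7 and 97.7 in Tead4 libraries (−1.30 ± 0.24). The part of these markers in the results above was not tested.

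Intronic differences mostly had the direction of the exonic ones. Of 8375 genes with a mean of at least 50 in introns, 1129 passed limma (13.5%), 630 higher in Sox9 cells (7.52%) and 499 lower (5.96%). Without Tead4 library 1 the count was 214, and without Tead4 library 2 it was 557. With scaling by total intronic reads the split was 493 higher and 612 lower. By size, 367 genes (4.38%) were at least 2-fold apart, 241 higher and 126 lower. Of the 719 genes that passed in exonic reads, 575 were measured in introns, where 570 had the same sign, 410 passed with the same sign and 0 passed with the opposite sign. Across 7797 genes measured both ways, the log2 differences had a Pearson r of 0.892 and a Spearman rho of 0.788, over genes that share these 4 libraries and are not independent.

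Among the genes lowest in introns were 2 that lay under the minimum mean in exonic reads. Fgf12, an intracellular FGF homologue, had 10.1 and 11.8 normalised intronic reads in Sox9 libraries, against 542 and 307 in Tead4 libraries (−5.10 ± 0.28, limma adjusted p = 7.2e-06). In exons it had 0 and 0 in Sox9 libraries, against 90.4 and 68.9 in Tead4 libraries. The repressor Klf12 had 9.11 and 4.71 intronic in Sox9 libraries, against 92.7 and 102 in Tead4 libraries (−3.70 ± 0.40, limma adjusted p = 0.0005). In exons it had 0 and 0 in Sox9 libraries, against 22.0 and 30.7 in Tead4 libraries. Both were lower in every Sox9 library than in any Tead4 library.

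For 7 of 7797 genes (0.0898%) the exonic difference departed from the intronic one and passed limma, 5 with a higher and 2 with a lower exonic value, while 1098 had an unadjusted p under 0.05. Leaving out Sox9 library 1 gave 4 genes and leaving out Tead4 library 2 gave 14. Tead4 was one of them, with an exonic difference beyond the intronic one by −2.93 ± 0.15 (limma adjusted p = 0.00038). Crabp1 was the other on the lower side, with 3 exonic reads in Sox9 cells and 2052 in Tead4 cells, and 1 intronic read in Sox9 cells and 260 in Tead4 cells. On the higher side stood Hapln1, Chl1, Igfbp5, Fam198b and Klhl21. Fam198b, a Golgi-bound kinase-like protein, was 5.22 ± 0.34 higher in exons and 4.04 ± 0.32 in introns, a difference of 1.18 ± 0.13 (limma adjusted p = 0.031). Klhl21, an adaptor of ubiquitin ligases, was 0.61 ± 0.16 in exons and −0.55 ± 0.22 in introns, neither passing alone. As unlike between exons and introns, Fam198b passed only without Tead4 library 1 among the 4 fits that leave out a library, Klhl21 only without Tead4 library 2, and Chl1 was lost without Sox9 library 1 or 2 (limma adjusted p = 0.13 and 0.17). For Hapln1, Chl1 and Igfbp5 the exonic reads of Tead4 cells numbered 0, 1 and 0, so the size of their departure rests on the 1 added to each value. Cxadr had a wide gap of −4.04 ± 0.62 between exons and introns that did not pass (limma adjusted p = 0.15), with 121 and 119 normalised intronic reads in Sox9 libraries against 404 and 313 in Tead4 libraries.

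**Figure D5:**
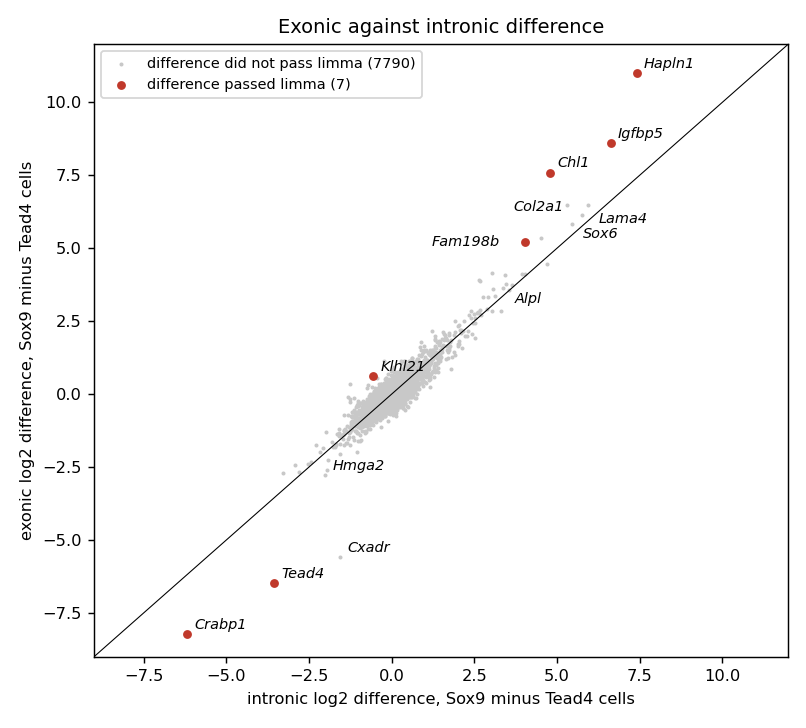
Exonic against intronic log2 difference of Sox9 minus Tead4 cells for 7797 genes, with the line of equality. The 7 genes whose exonic and intronic differences passed limma as unlike are marked, with Tead4 and Crabp1 below the line and Hapln1, Chl1, Igfbp5, Fam198b and Klhl21 above it.

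Promoter sequence is shown for genes at each end of the comparison, because TEAD and SOX proteins bind short motifs that can be looked for in it. The 250 bases before the start site of Acan (chr7:79052976-79053225, plus strand) and Igfbp5 (chr1:72874866-72875115, minus strand), both high in Sox9 cells, and of Crabp1 (chr9:54764498-54764747, plus strand) and Hmga2 (chr10:120476470-120476719, minus strand), both low in Sox9 cells, were read from RefSeq on GRCm38.p6, while the authors name the mm9 build. Capitals mark a match to the TEAD motif GGAATG or the SOX motif ACAAAG or ACAATG on either strand.
Acan: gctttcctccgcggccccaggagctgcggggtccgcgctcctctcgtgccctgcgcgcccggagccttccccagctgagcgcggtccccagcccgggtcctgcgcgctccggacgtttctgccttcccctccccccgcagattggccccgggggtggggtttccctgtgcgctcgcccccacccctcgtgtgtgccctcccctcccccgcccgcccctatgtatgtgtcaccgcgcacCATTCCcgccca
Igfbp5: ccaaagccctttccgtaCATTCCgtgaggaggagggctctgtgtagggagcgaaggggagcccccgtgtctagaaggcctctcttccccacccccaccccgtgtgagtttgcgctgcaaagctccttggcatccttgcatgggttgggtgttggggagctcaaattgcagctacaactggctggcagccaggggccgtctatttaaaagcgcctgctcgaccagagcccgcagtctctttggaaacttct
Crabp1: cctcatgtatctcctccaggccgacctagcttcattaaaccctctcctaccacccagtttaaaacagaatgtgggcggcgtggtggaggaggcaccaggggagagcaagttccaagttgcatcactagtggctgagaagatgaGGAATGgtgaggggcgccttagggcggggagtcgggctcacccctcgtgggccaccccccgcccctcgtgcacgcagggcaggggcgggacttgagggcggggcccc
Hmga2: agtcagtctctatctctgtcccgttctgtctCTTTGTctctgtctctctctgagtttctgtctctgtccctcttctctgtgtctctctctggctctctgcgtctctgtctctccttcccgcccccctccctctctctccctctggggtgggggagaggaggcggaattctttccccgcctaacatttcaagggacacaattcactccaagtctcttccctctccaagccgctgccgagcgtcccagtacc
The capitals are the TEAD motif in Acan, Igfbp5 and Crabp1, on the other strand in Acan and Igfbp5, and the SOX motif on the other strand in Hmga2. So the TEAD letters occur at both ends of the comparison.

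Windows of 300 bases, 250 before and 50 after the start, were found for 7089 of the 9687 compared genes. The TEAD motif was in 17.6% of the windows of genes that passed and were at least 2-fold higher in Sox9 cells, in 17.8% of those at least 2-fold lower, in 11.6% of all compared genes' windows and in 14.7% of all windows of the table. The SOX motif was in 16.8% of the windows of the higher genes and 26.4% of those of the lower genes, beside 19.3% of compared and 28.6% of all windows. The AP-1 motif TGANTCA was in 5.04% of the higher and 9.30% of the lower genes' windows, beside 4.67% and 7.81%. Both strands were searched, each window counted once per motif, and matches of different motifs may overlap. A match is only a run of letters and does not show that a factor binds.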

How the data were processed

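The members and gene lists were chosen with earlier results of these data known. Per the submitters' processing notes, the authors used Bowtie2, DESeq 1.10.1 and the mm9 build, with no role or order given. The signal columns used here are, per the file headers and values, mean reads per group that the authors divided by size factors, for exons and introns separately. The ratio (fold), log2 and p-value columns deposited by the authors compare each factor with vector and enter no result here. How reads were assigned to exons, introns, strands, paralogs and overlapping genes is not given in the sources used here.

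Every deposited mean could be written in 1 way as whole multiples of a pair of steps, which gave the reads of 2 libraries per group (tolerance 1e-09, tested on simulated data). Read numbers and counting intervals rest on this derivation. No single step per column gives whole reads, so the values were not taken as deposited counts and no count test was run. Library 1 has the larger size factor, and these numbers pair nothing between groups. The vector reads found from each of the 3 factor tables were unequal for 0 genes. The Tead4 table was put on the scale of the Sox9 table by the median ratio of their vector means, 0.846 in exons (6933 genes) and 0.904 in introns (4591 genes) with at least 200 in both. Genes with a mean of at least 50 over both groups were compared, so a gene almost silent in either group may be compared because it is high in the other.

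The test, 2 libraries against 2, used log2 of normalised reads plus 1 in limma 3.58.1 (R 4.3.3, trend of variance on mean), with Benjamini-Hochberg adjustment over all compared genes. Fold changes on this scale understate low genes. Exonic and intronic libraries of a group were matched so that their library differences correlate positively across genes. Intervals are exact 95% counting intervals of a ratio of reads, the floor is 3 reads over the group, and both cover counting error only. None of the columns used was without a group (0 unmapped).

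Named were the 4 factor and Dicer genes, the 12 highest and lowest passing genes in exons and 6 in introns, the top 4 of each list with all passing members where 8 or fewer, and the 4 most extreme exon-intron differences. The others were chosen after their values were seen or lay under the minimum: Col11a1, Col11a2, Col9a1, Col27a1, Trpv4, Xylt1, Papss2, Fmod, Sox5, Runx2, Ctgf, Cyr61, Ankrd1, Tead1, Yap1, Etv5, Dusp6, Hbegf, Fgfr2, Col1a2, Fn1, Col4a1, Loxl3, Fbln1, Fbln2, Cdh19, S100b, Klhl21, the cell type markers, and the genes of the closing observations.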

Additional observations from a re-analysis of the deposited data

How the results depend on the processing

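With 2 libraries per group, the counts of called genes depended on the settings, and the cause was not tested. The 719 exonic calls became 356 with a minimum mean of 200, 351 with the spread taken from all 8 libraries and 380 with limma without a trend, and left-out libraries gave 555 to 1930. Without Sox9 library 1 the split turned, with 749 of 1621 calls higher in Sox9 cells. The 1129 intronic calls became 502 with the spread of 8 libraries and 678 without a trend, and left-out libraries gave 214 to 968. The 7 genes unlike between exons and introns became 73 with a minimum of 200, of which 2 were among the 7, and 3 with the spread of 8 libraries, and left-out libraries gave 4 to 14. A fit that leaves out a library assumes that the lone sample varies as the other group does.

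Genes at least 2-fold apart by size numbered 204 in exons and 157 in introns with a minimum mean of 200, and 797 and 716 with a minimum of 10, where more genes enter. Pseudocount 5, median-of-ratios size factors and total reads kept the called counts within 1.5 times, at 741, 719 and 724 in exons and 1134, 1136 and 1105 in introns.

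No replicate numbers are given in the labels, so the samples are paired by nothing in the design. As a hint from the data only, Sox9 library 1 and Tead4 library 2 deviated alike (r = 0.44 across genes in exons, 0.31 in introns), and over the 6 pairs of Sox9, Tead4, Pbx3 and vector groups r ran up to 0.81 in exons (Pbx3 with vector) and 0.76 in introns. A replicate block on that order raised the calls to 2262 in exons and 2267 in introns, and Fam198b and Klhl21 were no longer called as unlike between exons and introns. Under it 8 named exonic values that had missed the threshold passed: 2410066E13Rik, Ankrd1, Ctgf, Dicer1, Klhl21, Leprel2, Pdgfrb and Runx2.

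Of 141 called values named in the text, 40 were lost with the spread of 8 libraries, 36 without a trend, 8 with a minimum of 200, 4 with a minimum of 10, 1 with total reads, and none with pseudocount 5 or median-of-ratios factors. Named values under the minimum of 200, called or not, were not tested at that setting, where 83 stayed the same and 8 were lost. None of the called values changed sign under any of these settings or without any library. The 8 lost at 200 were Adamts12, Col3a1, Dusp6, Fbln2, Itga1, Rpl13, Sfrp2 and Smad6 in exons, at limma adjusted p of 0.053 to 0.0605. Among those lost both with the 8-library spread and without a trend were Dusp6, Fbln1, Notch2, Plin2, Rb1, Rpl13 and Vgll4 in exons and Ctgf, Cyr61 and Dicer1 in introns. Sox8 and Alpl were lost without a trend alone. Of the uncalled values, 3 in exons changed sign among the fits without a library: Cyr61 ranged over −0.35 to 0.012, Pbx3 over −0.34 to 0.041 and Tead1 over −0.43 to 0.018. Depth limits genes under a mean of 50, for which values are given without a test.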

Other observations

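Further genes outside the lists, chosen after their values were seen, were higher in Sox9 cells and passed limma. Mest, an imprinted gene of mesoderm, had 261 and 177 normalised exonic reads in Sox9 libraries, against 3.80 and 11.2 in Tead4 libraries (4.82 ± 0.49, limma adjusted p = 0.0064). Cryab, a small heat shock protein, had 393 and 383 in Sox9 libraries, against 37.2 and 54.9 in Tead4 libraries (3.07 ± 0.22, limma adjusted p = 0.0018). The semaphorin receptor Plxnb1 (3.97 ± 0.46), the engulfment receptor Megf10 (4.16 ± 0.37), the copper carrier Cp (3.34 ± 0.48), the pentraxin Ptx3 (2.15 ± 0.31) and the syndecan Sdc3 (2.37 ± 0.32) were higher too. The cytoskeletal protein Pgm5 had 237 and 83.3 in Sox9 libraries, against 0.76 and 7.45 in Tead4 libraries (5.20 ± 0.84, limma adjusted p = 0.021), and 174 and 73.2 in vector libraries.

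Others were lower in Sox9 cells. The neurotrophin Bdnf had 270 and 301 normalised exonic reads in Sox9 libraries, against 1119 and 699 in Tead4 libraries (−1.63 ± 0.22, limma adjusted p = 0.014). The tight junction protein Cldn1 had 75.8 and 44.3 in Sox9 libraries, against 260 and 330 in Tead4 libraries (−2.32 ± 0.28, limma adjusted p = 0.0099). Socs2, a brake on cytokine signalling, had 143 and 130 in Sox9 libraries, against 511 and 470 in Tead4 libraries (−1.84 ± 0.14, limma adjusted p = 0.0022). The receptor kinase Ret (−1.86 ± 0.30) and the extracellular dismutase Sod3 (−1.72 ± 0.24) were lower as well.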
